A study of Mus musculus with 48 samples.

Results

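The N-glycosylation pathway of the endoplasmic reticulum was followed through cultured mouse kidney slices as a set of 40 genes, out of 55487 gene identifiers in the count table. The members were chosen by symbol from the known steps of the pathway: synthesis of UDP-GlcNAc and of dolichol, assembly of the lipid-linked sugar, its transfer to protein and the first trimming steps. Each of the 40 matched 1 Ensembl identifier, and each passed the filter on low counts in every comparison.

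N-glycosylation begins on the membrane of the endoplasmic reticulum, where an oligosaccharide is built on the lipid carrier dolichol, first on the cytosolic and then on the lumenal face. The oligosaccharyltransferase moves the finished sugar onto asparagine residues of newly made proteins, and glucosidases and a glucosyltransferase then use it to control folding. Tunicamycin blocks DPAGT1, the enzyme that adds the first sugar to dolichol; unglycosylated proteins then accumulate and the unfolded protein response is switched on. Kidney tubule cells carry many glycosylated transporters and receptors on their surface.

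Bulk RNA was measured in kidney slices taken from male C57BL/6J or DBA/2J mice, both inbred, and treated outside the body. In each strain there were untreated controls at 6 and 24 h, tunicamycin at 6 and 24 h and cyclosporin A, a calcineurin inhibitor, at 6 and 24 h. A further 2 arms at 24 h were kept in normoxia (an ischemia model in the labels) or in normoxia and then hyperoxia (a reperfusion model in the labels). These made 16 groups of 3 libraries, 48 in all. Doses, the ages of the mice, the oxygen level of the controls and the time of the oxygen switch are not given in the sources used here. The oxygen arms carry a different title from the drug arms and have no controls of their own, so the 24 h controls of the drug arms served both, and oxygen arm and experiment cannot be told apart. The labels number biological replicates 1 to 3 without saying whether slices of different groups came from the same mouse; p-values measure the spread between these libraries.

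The median library held 19607361 counts, the smallest 5619309 and the largest 25137581; the smallest was the DBA/2J normoxia-hyperoxia replicate 2, and the next lowest held 12384733. Values are given as CPM, counts scaled to the size of the library with TMM factors over all libraries. Every marker checked of tubule segments, podocytes, endothelium, immune cells and fibroblasts was above 0 in every library. At 24 h, 1 tunicamycin library stood apart: in C57BL/6J replicate 3 only 8 of the 40 members lay above all 3 controls of the strain, against 25 and 23 in replicates 1 and 2 and 19 to 27 in the DBA/2J tunicamycin libraries. A library without tunicamycin came into the same range: in DBA/2J cyclosporin A replicate 2 at 24 h 20 members lay above all 3 controls of the strain, against 2 to 8 in the other cyclosporin A libraries. In C57BL/6J tunicamycin replicate 3 Calr, the glycoprotein chaperone calreticulin, was at 1500 CPM, against 2170 and 2130 CPM in replicates 1 and 2. DBA/2J tunicamycin libraries held 1920 to 2200 CPM and the C57BL/6J controls 1210 to 1310 CPM. Tunicamycin results at 24 h are given with C57BL/6J tunicamycin replicate 3 and, where it matters, without that library.

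Of the members 4 transferase subunits had the highest levels per length; the other 5 stood between places 10 and 19. In 24 h controls Ddost, a subunit of the oligosaccharyltransferase, had 81.1 ± 4.69 CPM per kilobase of annotated exon (SD, n = 3) in C57BL/6J and 88.7 ± 1.22 in DBA/2J. Its partner subunits Rpn1 and Rpn2 followed at 55.6 ± 4.17 and 47.4 ± 1.39 in C57BL/6J and at 53.6 ± 1.17 and 44.7 ± 1.63 in DBA/2J. Stt3b, a catalytic subunit, came next. Dpagt1, the tunicamycin target, stood in place 24 of 40 with 8.64 ± 0.239 and 8.35 ± 0.888 CPM per kilobase. Its neighbours in that order, Gnpnat1 (8.13 ± 0.908 and 8.93 ± 0.509) and Alg10b (8.37 ± 0.585 and 7.86 ± 0.477), did not differ from it beyond these spreads. The lowest were Uggt2 at 0.341 ± 0.0478 and 0.384 ± 0.0246 and Alg6 at 0.437 ± 0.0352 and 0.37 ± 0.0453.

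On GRCm38, Dpagt1 (ENSMUSG00000032123) lies at chr9:44326019-44333900, Rpn1 (ENSMUSG00000030062) at chr6:88084482-88105304 and Ddost (ENSMUSG00000028757) at chr4:138304730-138312628, all on the plus strand and all annotated as protein-coding. Exons of 12 of the 40 members share bases with another annotated gene; for Rpn1 this is 131 of 4512 bases, with Mir6376, and for Rpn2 242 of 4430, with Mroh8.

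Promoter sequence was looked up for the members because several transferase genes moved together under tunicamycin. RefSeq promoters (GRCm38.p6, 250 bases before to 50 after the start) were found for 34 of the 40 members; Dpagt1, Alg2, Alg11, Gnpnat1, Ostc and Tusc3 had no entry. Rpn1 and Ddost, which had the smallest adjusted p-values of the members at 24 h, and Alg12, a lumenal mannosyltransferase with the next highest fold change, which did not pass the test, are printed 5′ to 3′ on the strand of the gene. Capitals mark CCACG, on either strand, and in Alg12 also the CCAAT that stands 9 bases before it.
Rpn1, chr6:88084223-88084522, plus strand: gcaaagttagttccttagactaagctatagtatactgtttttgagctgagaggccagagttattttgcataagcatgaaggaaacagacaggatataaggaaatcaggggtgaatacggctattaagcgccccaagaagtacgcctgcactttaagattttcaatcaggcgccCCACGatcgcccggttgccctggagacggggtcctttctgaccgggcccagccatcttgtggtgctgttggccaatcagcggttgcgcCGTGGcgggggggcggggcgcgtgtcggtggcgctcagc
Ddost, chr4:138304488-138304787, plus strand: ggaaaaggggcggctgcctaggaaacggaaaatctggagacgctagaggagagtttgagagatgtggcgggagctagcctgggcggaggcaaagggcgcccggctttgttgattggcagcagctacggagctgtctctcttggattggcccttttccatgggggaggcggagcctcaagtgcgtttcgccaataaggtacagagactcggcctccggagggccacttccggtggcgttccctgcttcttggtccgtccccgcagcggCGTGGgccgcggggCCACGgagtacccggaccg
Alg12, chr15:88819269-88819568, minus strand: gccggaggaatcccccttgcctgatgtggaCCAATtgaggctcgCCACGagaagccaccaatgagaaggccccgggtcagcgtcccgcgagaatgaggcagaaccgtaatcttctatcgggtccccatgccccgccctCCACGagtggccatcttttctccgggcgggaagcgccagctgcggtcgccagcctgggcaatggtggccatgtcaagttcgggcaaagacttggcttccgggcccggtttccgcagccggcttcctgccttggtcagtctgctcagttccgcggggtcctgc
The ER stress response element, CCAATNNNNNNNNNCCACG on either strand, occurred in 39 of 32851 promoters (0.119%) and among the members in Alg12 alone, where it starts 220 bases before the start site. ERSE-II, ATTGGNCCACG, occurred in 0.0365% of promoters, the core TGACGTGG in 0.676% and the amino acid response element TGATGNAA in 3.97%; 0 of the 34 members held any of these in the window. The short CCACG, which is also the end of ERSE and ERSE-II, was in 20 of the 34 members and in 32.8% of all promoters. Members were counted by gene symbol and the share of all promoters by entry, so these are unlike units. Of the members called for tunicamycin at 24 h, 5 had a promoter entry, and 2 of these 5, Rpn1 and Ddost, held CCACG. These are matches of letters, not tests of binding.

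After 24 h of tunicamycin, 6 members rose and none fell at an adjusted p below 0.05, and 4 of the 6 encode subunits of the oligosaccharyltransferase. The largest changes were in Rpn1, which rose 1.34-fold, and Ddost, which rose 1.32-fold. Magt1, an oxidoreductase subunit, rose 1.27-fold, Alg2, a mannosyltransferase of the cytosolic face, 1.25-fold, Mogs, the first glucosidase, 1.2-fold and Rpn2 1.18-fold. Across all 16905 genes tested 0.97% were called higher and 0.408% lower, 164 and 69 genes (286 and 241 by DESeq2). Over the 40 members the median log2 fold change was 0.12 and 30 were above 0, against a median of 0.01 over all genes; the whole set stayed between -0.21 and 0.42.

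Rpn1 held 268, 231 and 254 CPM in the C57BL/6J controls and 363, 328 and 275 CPM with tunicamycin; in DBA/2J it held 247, 241 and 237 CPM against 342, 362 and 311 CPM. All treated libraries lay above all controls of their strain, and in C57BL/6J replicate 3 was the lowest of the treated libraries. The mean effect over the strains was 0.42 on the log2 scale (SE 0.0649, edgeR adjusted p = 0.00716). Ddost had 174, 161 and 181 CPM in C57BL/6J controls and 251, 227 and 185 CPM with tunicamycin. In DBA/2J the controls held 191, 187 and 186 CPM and the treated slices 257, 279 and 229 CPM. The groups did not overlap in either strain, although C57BL/6J replicate 3 came within a few CPM of the highest control (log2 0.40, SE 0.0684, edgeR adjusted p = 0.0126). These were also the only members called at 24 h in all 17 alternative fits tried.

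Rpn2, the second ribophorin of the complex, went from 216, 203 and 210 CPM to 265, 255 and 229 CPM in C57BL/6J and from 205, 197 and 191 to 239, 233 and 218 CPM in DBA/2J. Again no treated library overlapped the controls of its strain (log2 0.24, SE 0.0465, edgeR adjusted p = 0.0235). Magt1 went from 100, 83.1 and 89.4 CPM to 120, 111 and 95.5 CPM in C57BL/6J and from 86.6, 87.1 and 72.5 to 109, 124 and 97.8 CPM in DBA/2J. Its groups overlapped in C57BL/6J, where replicate 3 lay below the highest control, and not in DBA/2J (log2 0.34, SE 0.0753, edgeR adjusted p = 0.0415). Mogs rose from 43.9, 40.1 and 40.6 CPM to 51.2, 51.1 and 47.5 CPM in C57BL/6J and from 38.4, 36.3 and 36 to 44.5, 48.5 and 39 CPM in DBA/2J (log2 0.26, SE 0.0576, edgeR adjusted p = 0.0425). The Mogs groups did not overlap, but the lowest DBA/2J treated library was close to the highest control. The Rpn2 call was lost without C57BL/6J control replicate 1, 2 or 3, DBA/2J control replicate 3, C57BL/6J tunicamycin replicate 1 or 2 or DBA/2J tunicamycin replicate 1, with adjusted p-values up to 0.0821. The Magt1 call was lost without the same libraries and also without DBA/2J control replicate 1 or DBA/2J tunicamycin replicate 2 (up to 0.133). The Mogs call was lost without any of these 9 or DBA/2J control replicate 2 (up to 0.133).

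Dpagt1 itself did not pass the test. It held 29, 29.2 and 30.5 CPM in C57BL/6J controls and 40.6, 38 and 29 CPM with tunicamycin; in DBA/2J it held 30.3, 30.4 and 25.1 CPM against 33.9, 40 and 32.5 CPM. All treated libraries except C57BL/6J replicate 3 lay above the controls, and the fold change was 0.30 on the log2 scale (SE 0.0852, edgeR adjusted p = 0.122, range over the alternatives 0.0246 to 0.292). It passed without C57BL/6J tunicamycin replicate 3 and without a filter on low counts. Alg2, the other enzyme of the cytosolic face that stood out, went from 39.9, 36.5 and 36.4 CPM to 45.5, 46 and 39.5 CPM in C57BL/6J and from 37.8, 33.3 and 36.6 to 50, 46.4 and 49.1 CPM in DBA/2J. The DBA/2J groups lay well apart, while in C57BL/6J replicate 3 lay just under the highest control (log2 0.33, SE 0.0568, edgeR adjusted p = 0.0136). The call was lost without C57BL/6J tunicamycin replicate 1 (the range over the alternatives was 8.36e-05 to 0.052).

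**Figure D1:**
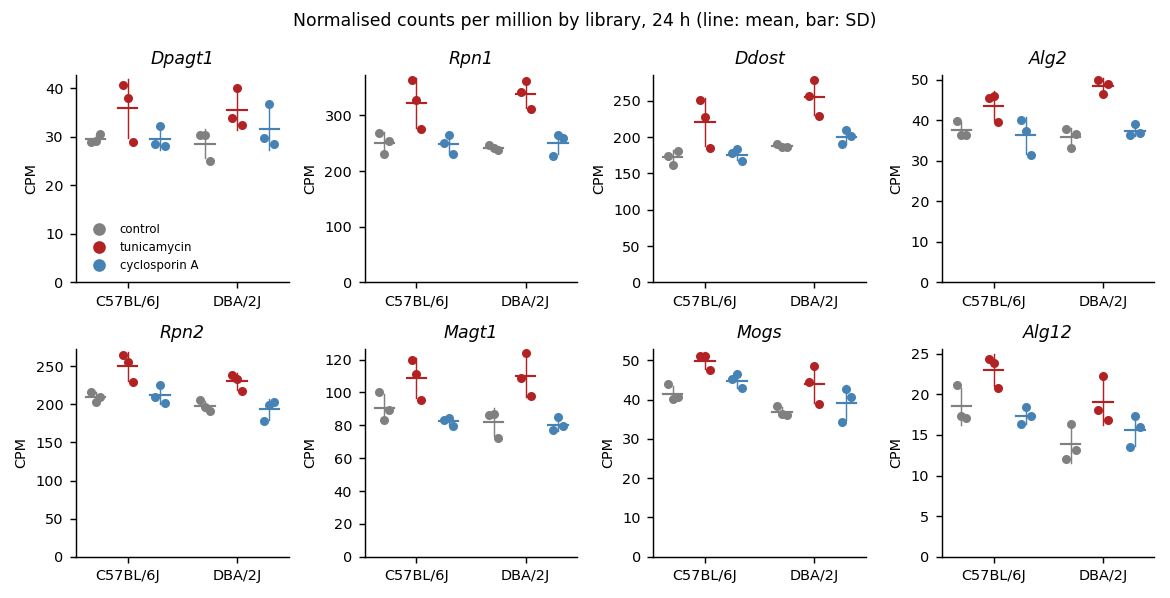
Normalised read counts (CPM) at 24 h for the 6 members that passed the test and for Dpagt1 and Alg12, which did not; each point is 1 library, with the mean (line) and SD (bar) of 3. Tunicamycin libraries of Rpn1, from 275 to 363 CPM, lie above all the controls of their strain, and C57BL/6J replicate 3 is the lowest of the C57BL/6J tunicamycin points in all 8 panels.

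By role, the oligosaccharyltransferase had 4 of 9 members called and a median log2 fold change of 0.24, with 8 of 9 above 0. As log2 fold change and edgeR adjusted p, the subunits that did not pass were Ostc (0.28, 0.112), Stt3b (0.24, 0.0851), Dad1 (0.24, 0.126), Stt3a (0.17, 0.384) and Tusc3 (-0.14, 0.409). Of these, Ostc passed with a replicate block, without a filter on low counts and without C57BL/6J tunicamycin replicate 3, and Dad1 in the last 2 of these settings. Stt3b passed in all 3, with DESeq2 and with all 48 libraries in 1 fit, so the 4 of 9 depends on these choices. The glucosidase and folding-sensor list had 1 of 5 called, Mogs, and the cytosolic face 1 of 6, Alg2. None of the 7 lumenal-face enzymes passed, and their median was -0.02; Alg12 was the highest at 0.39 (SE 0.0987, edgeR adjusted p = 0.0771, range over the alternatives 0.00809 to 0.202), and it passed without DBA/2J control replicate 2, without a filter on low counts, with DESeq2, with all 48 libraries in 1 fit and with a replicate block. Neither UDP-GlcNAc synthesis (0 of 4, median 0.17), dolichol synthesis (0 of 5, median 0.07) nor dolichol-phosphate-mannose (0 of 4, median 0.04) had a called member.

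The 3 pairs of related genes were set side by side. Stt3a encodes the catalytic subunit that acts while a protein is still being made and Stt3b the one that can act later; their values were 0.17 and 0.24. Magt1 and Tusc3 are alternative oxidoreductase subunits of the Stt3b complex, and only Magt1 was called (0.34 against -0.14). Uggt1, the folding sensor that adds glucose back to misfolded proteins, had 0.17 (edgeR adjusted p = 0.194), and its homologue Uggt2 had -0.21 (edgeR adjusted p = 0.498). The difference between the genes of a pair was not tested.

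**Figure D2:**
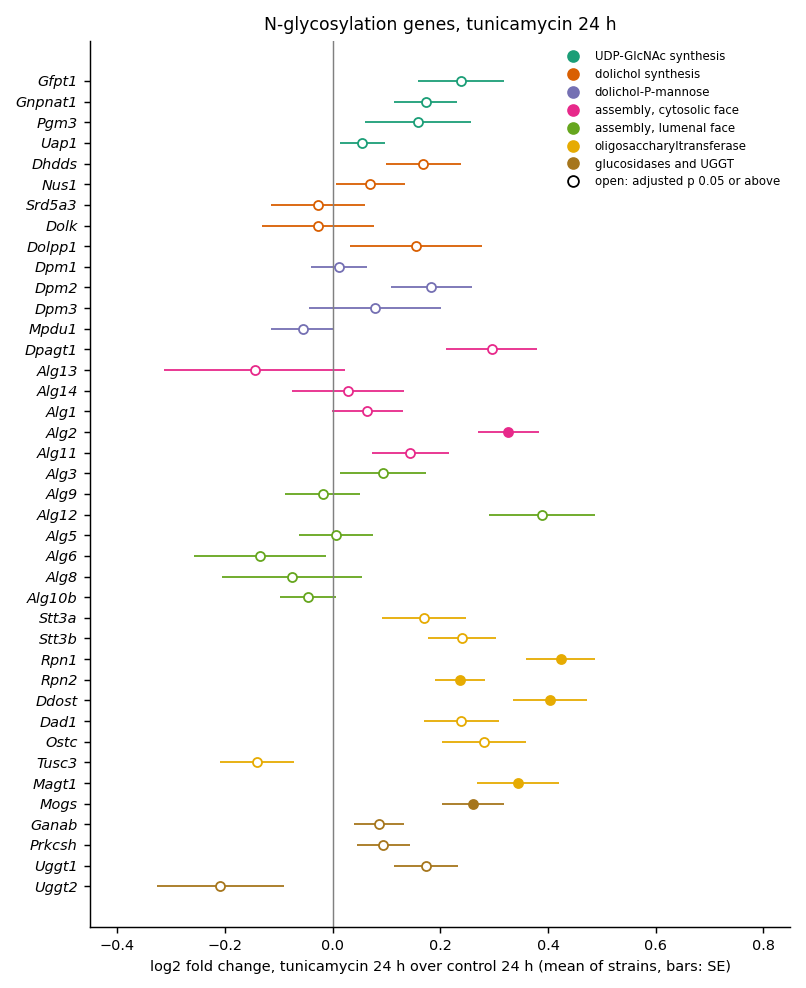
Log2 fold change of each of the 40 members between tunicamycin and control at 24 h, as the mean of the strains with its SE, coloured by role; filled points have an adjusted p below 0.05. The 6 filled points are all above 0, from 0.24 for Rpn2 to 0.42 for Rpn1.

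The count of 6 members depended on single libraries. It was 3 without C57BL/6J control replicate 1, 2 or 3, without DBA/2J control replicate 3, without C57BL/6J tunicamycin replicate 2 or without DBA/2J tunicamycin replicate 1. It was 2 without C57BL/6J tunicamycin replicate 1 and 11 without C57BL/6J tunicamycin replicate 3, where Ostc, Dhdds, Dad1, Dpagt1 and Stt3b were added. Shares of all genes called in these fits are not given here, so the counts were not set against a general gain or loss of calls. With CPM scaled over the 12 libraries of this comparison, groups that did not overlap in either strain were found for 5 members, all higher with tunicamycin (Rpn1, Rpn2, Ddost, Alg2 and Mogs), and for none lower; over all genes 1.46% were higher and 1.68% lower in this way. Alg2 is among the 5 on that scale only, since on the CPM scale over all libraries its C57BL/6J groups touch. Summed proximal tubule markers ran from 210 to 1200 CPM in C57BL/6J tunicamycin libraries and from 335 to 537 CPM in their controls, and from 954 to 1320 against 812 to 1830 CPM in DBA/2J. In DBA/2J thick limb and distal tubule markers summed to 3420 to 8020 CPM with tunicamycin and 2110 to 4380 CPM in controls, and fibroblast markers to 53 to 215 against 72.2 to 82 CPM; in C57BL/6J the thick limb sums were 2520 to 5810 and 2550 to 5090 CPM and the fibroblast sums 73.1 to 113 and 66.2 to 92.7 CPM. The part of these markers in the result was not tested. In bulk slices fewer cells of a type and less RNA per cell cannot be told apart.

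The strains were then taken apart. In DBA/2J 2 members were called, both higher: Alg2 (log2 0.45, SE 0.0803, edgeR adjusted p = 0.0412) and Rpn1 (0.50, SE 0.0918, edgeR adjusted p = 0.0438), with 0.201% of all genes higher and 0.0355% lower. That count fell to 0 without any 1 of the 3 DBA/2J controls, the 3 DBA/2J tunicamycin libraries or the 3 C57BL/6J controls, was 1 without C57BL/6J tunicamycin replicate 1, where Alg2 was lost, or replicate 2, where Rpn1 was lost, and 3 without replicate 3. Other settings called more: Magt1 and Ddost were added with DESeq2, making 4 members, and Stt3b as well without a filter on low counts and with all 48 libraries in 1 fit, making 5; RLE size factors left 1, Alg2. With a replicate block Magt1 was added, making 3 members, and 61 genes were called higher and 22 lower in DBA/2J, where same-numbered control and tunicamycin libraries deviated together (correlations of 0.202 to 0.216 over genes). Over the alternatives the adjusted p ran from 0.000457 to 0.204 for Alg2 and reached 0.217 for Rpn1. In C57BL/6J alone no member and 0% of all genes passed, and DESeq2 also called 0 members; at an unadjusted p below 0.05 there were 11 members (27.5%) and 6.16% of all genes. Rpn1 had a log2 fold change of 0.35 there (edgeR adjusted p = 0.411), and it was the 1 member called when no filter on low counts was used. The difference between strains in the tunicamycin effect was called for 0 members and 0% of genes by edgeR, with 0 members at an unadjusted p below 0.05 and 0 by DESeq2; the values of the members ran from -0.30 to 0.25.

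Genes of the pathway outside the 40 were taken from lists of sugar-nucleotide enzymes, other assembly proteins, lectin chaperones and Golgi enzymes. Of 46 tested, 8 rose after 24 h of tunicamycin and none fell, where 0.97% of all genes were called higher and 0.408% lower. Of the 8, 6 belong to the 11 genes of the lectin chaperone cycle. Calr rose 1.65-fold (log2 0.72, SE 0.0828, edgeR adjusted p = 0.00167) and its partner Pdia3, a disulfide isomerase for glycoproteins, 1.51-fold (log2 0.59, edgeR adjusted p = 0.00536). Mcfd2, the cofactor of a lectin that exports glycoproteins, rose 1.27-fold (log2 0.34, edgeR adjusted p = 0.0104). Among 18 Golgi genes 1 was called.

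At 6 h no member passed the test for tunicamycin. By edgeR 0 members and 0% of the 16551 genes were called, with 0 members and 281 genes at an unadjusted p below 0.05, and DESeq2 called 0 members. Rpn1 held 232, 201 and 213 CPM in C57BL/6J controls against 215, 193 and 206 CPM with tunicamycin, and 220, 216 and 227 against 211, 216 and 222 CPM in DBA/2J. These groups overlapped, with a difference of -0.05 on the log2 scale (SE 0.0613). Dpagt1 was at 0.002 (SE 0.0875) on the same scale, and the 40 members ran from -0.18 to 0.11.

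The tunicamycin effect at 24 h was compared with that at 6 h in 1 fit. Rpn1 was the 1 member whose effect differed with the chosen settings, by 0.47 on the log2 scale (SE 0.09, edgeR adjusted p = 0.0279), and 0.135% of all genes were higher and 0.0169% lower in this test. Ddost had a difference of nearly the same size, 0.47 (SE 0.0988), with an edgeR adjusted p of 0.059. Ddost was added without a filter on low counts, making 2 members, and Ddost and Alg2 with DESeq2 and with all 48 libraries in 1 fit, making 3. The Rpn1 call was lost in 16 of the 24 fits that left out 1 library, and over all alternatives its adjusted p ran from 0.000238 to 0.0843. Only leaving out C57BL/6J control 6 h replicate 2, C57BL/6J tunicamycin 6 h replicate 1, DBA/2J tunicamycin 6 h replicate 2, C57BL/6J control 24 h replicate 1, DBA/2J control 24 h replicate 1 or 2, C57BL/6J tunicamycin 24 h replicate 3 or DBA/2J tunicamycin 24 h replicate 3 kept it. The count was 3 without C57BL/6J tunicamycin 24 h replicate 3 and 2, with Ddost added, without C57BL/6J control 6 h replicate 2 or DBA/2J tunicamycin 24 h replicate 3. Of the other pathway genes, Calr (0.73, edgeR adjusted p = 0.00619), Pdia3 (0.65, 0.0131) and Mcfd2 (0.39, 0.0456) were called; the call of Mcfd2 was lost in 22 of 29 alternatives.

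Cyclosporin A was the second drug. Against controls 0 members and 0% of genes were called at 6 h, and 0 members and 0% at 24 h, by edgeR; DESeq2 called 0 members at both times. At an unadjusted p below 0.05 there were 0 members and 734 genes at 6 h and 4 members and 1107 genes at 24 h. The members ran from -0.20 to 0.17 at 24 h, with Dpagt1 at 0.08. The DBA/2J replicate 2 stood apart from the other cyclosporin A libraries, with a median log2 ratio of the members to the mean of the controls of 0.102, against -0.076 to -0.002; DBA/2J tunicamycin replicate 3 had 0.077. Its Calr level of 1060 CPM was below the 1920 to 2200 CPM of the DBA/2J tunicamycin libraries.

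Set directly against cyclosporin A at 24 h, tunicamycin libraries had 7 members higher and none lower, where 0.847% of all genes were higher and 0.458% lower. The count was 12 with DESeq2, where Rpn2, Ostc, Pgm3, Stt3b and Alg12 were added, and 13 with all 48 libraries in 1 fit, where Stt3a was added too. This comparison shares its tunicamycin libraries with the one above, so it is not an independent repeat. The largest difference was in Gfpt1, the rate-limiting enzyme that makes the precursor of UDP-GlcNAc, with 340, 321 and 261 CPM under tunicamycin and 216, 266 and 215 CPM under cyclosporin A in C57BL/6J, and 305, 333 and 261 against 188, 234 and 218 CPM in DBA/2J. The log2 difference was 0.44 (SE 0.0868, edgeR adjusted p = 0.0294), but Gfpt1 had overlapping groups in C57BL/6J and did not pass against controls (0.24, edgeR adjusted p = 0.191). Magt1 (0.42, SE 0.0643, edgeR adjusted p = 0.00956) and Rpn1 (0.40, SE 0.0708, edgeR adjusted p = 0.017) came next, and Gnpnat1, Ddost, Alg2 and Uggt1 lay between 0.30 and 0.34. Only Magt1 and Gnpnat1 among the 7 were called in all 17 alternatives. The Rpn1 call was lost without C57BL/6J tunicamycin replicate 1 or C57BL/6J cyclosporin A replicate 1 or 3 (adjusted p 4.94e-05 to 0.0808 over the alternatives). The Gfpt1 call was lost without C57BL/6J tunicamycin replicate 1 or 2, DBA/2J tunicamycin replicate 1 or 2, C57BL/6J cyclosporin A replicate 1 or 3 or DBA/2J cyclosporin A replicate 1 (up to 0.116). With 1 library left out, Alg2 kept the call only without C57BL/6J tunicamycin replicate 3 or C57BL/6J cyclosporin A replicate 1, Ddost only without C57BL/6J or DBA/2J tunicamycin replicate 3, and Uggt1 only without C57BL/6J tunicamycin replicate 3. The Uggt1 call was also lost with RLE size factors, which left 6 members. Gnpnat1 shares 3878 of its 4735 exon bases with Styx on the opposite strand, so its counts are uncertain if strand was not used in counting. The count was 2 without C57BL/6J tunicamycin replicate 1 or C57BL/6J cyclosporin A replicate 3. It was 3 without C57BL/6J tunicamycin replicate 2, DBA/2J tunicamycin replicate 1 or 2, C57BL/6J cyclosporin A replicate 1 or DBA/2J cyclosporin A replicate 1. It was 4 without C57BL/6J cyclosporin A replicate 2 or DBA/2J cyclosporin A replicate 2 or 3, and 11 without C57BL/6J tunicamycin replicate 3. Of 46 other pathway genes 7 were higher, with Calr (0.82), Pdia3 (0.76) and Mcfd2 (0.37) at the smallest p-values. Podocyte markers summed to 681 to 769 CPM with tunicamycin and 288 to 639 CPM with cyclosporin A in DBA/2J. In C57BL/6J these sums were 948 to 1260 and 927 to 1050 CPM. Thick limb and distal tubule markers had means of 5500 and 3380 CPM in DBA/2J and 3920 and 4640 CPM in C57BL/6J. Their part in the result was not tested.

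Untreated slices changed with time in culture. Between 6 and 24 h in untreated slices 21 members rose and 6 fell, in a comparison in which 34.7% of all genes rose and 37.4% fell. Gfpt1 rose 2.82-fold, Alg11, a mannosyltransferase of the cytosolic face, 2.42-fold and Alg8, a glucosyltransferase of the lumenal face, 2.31-fold. Dpm3, the membrane anchor of dolichol-phosphate-mannose synthase, fell 2.02-fold, Alg14, which recruits the second sugar transferase, 1.42-fold and Uap1, the last enzyme of UDP-GlcNAc synthesis, 1.33-fold. The transferase had 7 of 9 members higher and none lower, while in dolichol synthesis 1 of 5 changed, Dolk, and it fell.

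Gfpt1 held 82.4, 97.7 and 88.3 CPM at 6 h and 303, 246 and 297 CPM at 24 h in C57BL/6J, and 86.1, 90.6 and 95.6 against 231, 253 and 219 CPM in DBA/2J. Every 24 h library lay far above every 6 h library (log2 1.49, SE 0.0726, edgeR adjusted p = 3.83e-10). Dpm3 held 18.8, 12.8 and 18.5 CPM at 6 h and 7.69, 6.92 and 8.37 CPM at 24 h in C57BL/6J, and 16.6, 12.8 and 16.8 against 7.54, 7.79 and 10.3 CPM in DBA/2J. The groups did not overlap (log2 -1.01, SE 0.125, edgeR adjusted p = 3.85e-06). Dpagt1 was 1.49-fold higher at 24 h (edgeR adjusted p = 3.09e-05). Uap1 moved against the rest of its branch: Gnpnat1 and Pgm3, which stand between Gfpt1 and Uap1 in the branch, rose by 0.29 and 0.51 on the log2 scale and Uap1 was at -0.41.

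The members took a larger share of all counts at 24 h, 0.296% ± 0.0182 (SD, n = 3) against 0.19% ± 0.00711 at 6 h in C57BL/6J. The DBA/2J shares were 0.295% ± 0.00799 and 0.231% ± 0.00433. Over the same time the share of mitochondrial counts went from 15.4% to 6.82% in C57BL/6J and from 8.16% to 3.52% in DBA/2J, and summed proximal tubule markers from 2670 to 5310 CPM down to 335 to 537 CPM and from 5900 to 6900 CPM down to 812 to 1830 CPM. Other segments were lower at 24 h too: thick limb and distal tubule markers went from 13600 to 15000 down to 2550 to 5090 CPM in C57BL/6J, with DBA/2J sums going from 7340 to 9530 down to 2110 to 4380 CPM, collecting duct markers from means of 469 and 376 to 152 and 124 CPM and podocyte markers from 2030 and 1400 to 1150 and 678 CPM. Endothelial markers had similar means at both times, 968 and 973 CPM in C57BL/6J and 586 and 562 CPM in DBA/2J, while immune markers were higher at 24 h, at 106 against 91.4 CPM and 138 against 94.2 CPM. The part of these in the result was not tested. The time effect differed between strains for 0 members by edgeR and 0 by DESeq2, where 0.69% of all genes were called; at an unadjusted p below 0.05 there were 5 of 40 members (12.5%) and 13.2% of all genes. Without C57BL/6J control 6 h replicate 1 this count was 1 (Ganab). Among the other pathway genes 19 of 46 rose and 17 fell, where 34.7% of all genes rose and 37.4% fell. Mgat3, which adds the bisecting GlcNAc in the Golgi, fell 6.67-fold, while Pmm1, a phosphomannomutase, rose 2.36-fold and Slc35c1, the Golgi GDP-fucose transporter, 2.15-fold.

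**Figure D3:**
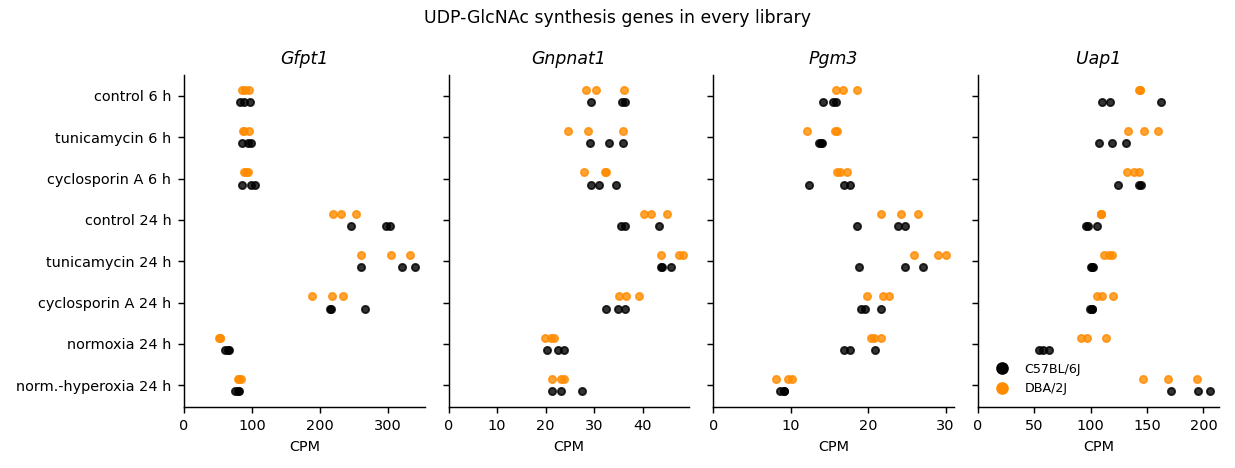
Normalised read counts (CPM) of the 4 UDP-GlcNAc synthesis genes in each of the 48 libraries, by group and strain. Gfpt1 lies between 82.4 and 104 CPM in all 6 h libraries, between 188 and 340 CPM in control and drug libraries at 24 h and below 85 CPM in both oxygen arms, while Uap1 reaches 206 CPM in the normoxia-hyperoxia arm and at most 120 CPM in the other 24 h groups.

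In the normoxia arm the branches of the pathway went different ways. Against the 24 h controls all 4 UDP-GlcNAc genes fell and all 5 dolichol synthesis genes rose, as means of the strains. Not all of them passed in each strain: Uap1 fell in C57BL/6J alone (log2 -0.78 there and -0.03 in DBA/2J; difference 0.75, SE 0.121, edgeR adjusted p = 0.000892), Pgm3 passed in neither strain by itself (-0.27 and -0.12), and Nus1, a subunit of the enzyme that builds the dolichol chain, passed in DBA/2J alone (0.95, and 0.15 in C57BL/6J; difference 0.80, SE 0.155, edgeR adjusted p = 0.00289). The Pgm3 call over both strains (-0.19, edgeR adjusted p = 0.0447) was lost without a filter on low counts, with a replicate block and without C57BL/6J control replicate 1 or 3, DBA/2J control replicate 1 or 3, C57BL/6J normoxia replicate 1 or 3 or any of the 3 DBA/2J normoxia libraries. In all 17 members rose and 12 fell, in a comparison that called 42.4% of all genes higher and 39.7% lower. The largest rises were in Dolpp1, which recycles the dolichol carrier (2.62-fold), Dpm3 (2.33-fold) and Dolk, the kinase that makes dolichol phosphate (2.19-fold). The largest falls were in Gfpt1 (4.32-fold), Gnpnat1 (1.82-fold) and Ostc, a transferase subunit (1.79-fold). Gnpnat1 and Pgm3 share exon bases with genes on the opposite strand, so the limit on their counts given above holds here.

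Gfpt1 held 60.5, 66.7 and 65.2 CPM in C57BL/6J normoxia and 51.4, 52.4 and 52.5 CPM in DBA/2J normoxia, below all 24 h controls (log2 -2.11, SE 0.0643, edgeR adjusted p = 7.78e-14). Dolpp1 held 6.01, 5.92 and 7.64 CPM in C57BL/6J controls against 15.2, 13.7 and 13.2 CPM, and 6.12, 5.42 and 6.59 against 17.8, 16.9 and 18.9 CPM in DBA/2J. Its normoxia libraries all lay above all controls (log2 1.39, SE 0.0931, edgeR adjusted p = 8.95e-10). Dpm3 held 20.3, 16.5 and 19.3 CPM in C57BL/6J and 19.5, 18.1 and 15.8 CPM in DBA/2J (log2 1.22, SE 0.101, edgeR adjusted p = 1.2e-08). Uap1 went from 106, 96 and 97.6 CPM to 62.7, 54.2 and 57.4 CPM in C57BL/6J, while in DBA/2J its normoxia libraries at 114, 96.9 and 91.5 CPM lay on both sides of the controls, all at 109 CPM. Of the transferase subunits 3 rose and 3 fell, with a median of 0.02. Dpagt1 was 1.15-fold lower (log2 -0.21, SE 0.073, edgeR adjusted p = 0.0159), a call lost without DBA/2J normoxia replicate 1 (the range over the alternatives was 0.00433 to 0.0505).

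Proximal tubule markers summed to 4750 to 7750 CPM in C57BL/6J normoxia and 13200 to 14500 CPM in DBA/2J normoxia, against 335 to 537 and 812 to 1830 CPM in the controls. Mitochondrial counts made up 23.9% and 12.3%, against 6.82% and 3.52%. Collecting duct markers were higher too, with means of 617 against 152 CPM in C57BL/6J and 310 against 124 CPM in DBA/2J. Endothelial markers were lower, at 487 and 295 CPM against 973 and 562 CPM, and in DBA/2J immune markers were at 63 against 138 CPM and fibroblast markers at 41.5 against 75.5 CPM. The part of these in the result was not tested. Of 46 other pathway genes 22 rose and 14 fell, where 42.4% of all genes were called higher and 39.7% lower. Mgat3 was 24.9-fold higher, from 3.38 to 6.16 CPM in the controls to 68.6 to 162 CPM, Fut8, the core fucosyltransferase, 4.67-fold higher and Pmm1 3.05-fold lower.

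The normoxia effect differed between the strains for 17 members, all of them more positive in DBA/2J; over all genes 10.1% differed in that direction and 6.88% in the other. The split over all genes, 1761 and 1195, turned to 955 and 1079 with all 48 libraries in 1 fit and to 1738 and 1758 without a filter on low counts. It also turned without C57BL/6J control replicate 3 (734 and 1126) and without DBA/2J control replicate 1 (1070 and 1630), 2 (935 and 1747) or 3 (721 and 1216). The split of the members was 16 and 1 with all 48 libraries and had none more negative in DBA/2J in the other 5 of these settings. Of the transferase 5 of 9 members differed (Stt3a, Stt3b, Rpn1, Rpn2 and Ddost), as did 4 of the 5 glucosidase and folding-sensor genes and 3 of the 5 dolichol synthesis genes. None of the 4 dolichol-phosphate-mannose genes did. In C57BL/6J 12 members rose and 16 fell, where 38.8% of all genes rose and 37.3% fell. In DBA/2J 24 members rose and 6 fell, where 38.8% of all genes rose and 35.5% fell.

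The smallest p-values were those of Stt3b, Ddost and Mogs. Stt3b held 167, 143 and 156 CPM in C57BL/6J controls and 120, 116 and 123 CPM in normoxia, but 163, 156 and 149 against 201, 189 and 202 CPM in DBA/2J. It thus fell in the first strain and rose in the second, without overlap (difference 0.80, SE 0.104, edgeR adjusted p = 0.00022). Ddost fell to 118, 111 and 118 CPM in C57BL/6J and held 207, 187 and 210 CPM in DBA/2J normoxia (difference 0.75, SE 0.104, edgeR adjusted p = 0.000312). Its C57BL/6J groups lay apart, and its DBA/2J groups overlapped, since 1 normoxia library at 187 CPM lay below the highest control at 191 CPM. Mogs held 27.7, 27 and 33.2 CPM in C57BL/6J normoxia and 44.4, 42.8 and 46.2 CPM in DBA/2J normoxia, below its controls in the first and above them in the second (difference 0.85, SE 0.122, edgeR adjusted p = 0.000381). For Dpagt1 the difference was 0.56 (SE 0.146, edgeR adjusted p = 0.0173, range over the alternatives 0.00675 to 0.118). That call was lost without C57BL/6J control replicate 3, without DBA/2J control replicate 3 and with all 48 libraries in 1 fit. In the same normoxia libraries thick limb and distal tubule markers summed to 13000 to 18200 CPM in C57BL/6J and 4460 to 6030 CPM in DBA/2J; their part was not tested.

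**Figure D4:**
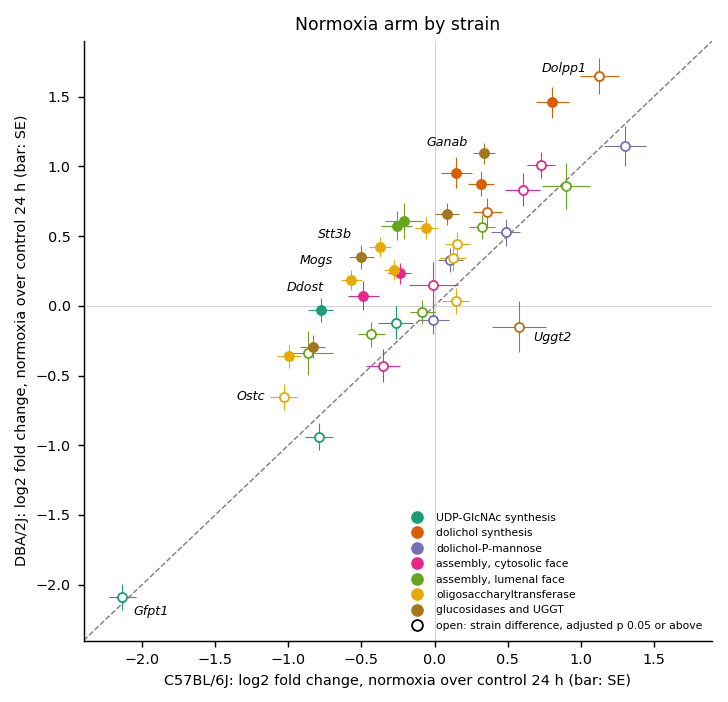
Log2 fold change of each of the 40 members between normoxia and control at 24 h in C57BL/6J (horizontal) and DBA/2J (vertical), with SE bars; filled points have a strain difference with an adjusted p below 0.05, and the dashed line marks equal effects. The 17 filled points lie above the line, and Gfpt1 lies near it at -2.13 and -2.09.

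In the normoxia-hyperoxia arm most of the pathway was low. Against the 24 h controls 32 members fell and 2 rose, where 34.1% of all genes were called lower and 34.1% higher. All 9 transferase subunits fell, with a median log2 fold change of -0.69, and 6 of 7 lumenal-face and 5 of 6 cytosolic-face enzymes fell too. The largest falls were in Alg8 (3.58-fold), Gfpt1 (3.21-fold) and Pgm3, an enzyme of UDP-GlcNAc synthesis (2.55-fold). Only Uap1 (1.72-fold) and Dpm3 (1.28-fold) were called higher. For Dpm3 the lowest DBA/2J library of this arm, at 9.87 CPM, lay below the highest control at 10.3 CPM. Alg14 was not called, although its libraries in this arm lay above all controls in both strains. Over the members the median was -0.58, against 0.004 over all genes.

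Alg8 held 9.85, 10.3 and 12.6 CPM in C57BL/6J controls and 2.95, 3.07 and 2.49 CPM in this arm, and 15.8, 9.93 and 12.6 against 4.35, 3.15 and 3.75 CPM in DBA/2J. The groups lay well apart (log2 -1.84, SE 0.14, edgeR adjusted p = 2.3e-08). Dpagt1 held 13.4, 13.6 and 16.4 CPM in C57BL/6J and 17.6, 11.2 and 16 CPM in DBA/2J, below all controls (log2 -0.97, SE 0.0986, edgeR adjusted p = 4.84e-07). Uap1 went the other way, from 106, 96 and 97.6 CPM in C57BL/6J controls to 206, 171 and 195 CPM, and from 109 CPM in each DBA/2J control to 146, 169 and 194 CPM. No library of this arm overlapped the controls (log2 0.78, SE 0.0706, edgeR adjusted p = 1.42e-07).

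The members made up 0.166% ± 0.00714 and 0.178% ± 0.0058 of all counts in this arm (SD, n = 3), the lowest shares of the 24 h groups, against 0.296% and 0.295% in the controls. Proximal tubule markers summed to 135 to 201 CPM in C57BL/6J and 583 to 868 CPM in DBA/2J, and thick limb and distal tubule markers to 13300 to 22200 and 12600 to 14600 CPM against 2550 to 5090 and 2110 to 4380 CPM in the controls; collecting duct markers summed to 764 to 895 and 598 to 746 CPM against 131 to 168 and 101 to 154 CPM. Podocyte markers had means of 1820 and 1480 CPM against 1150 and 678 CPM, and in DBA/2J endothelial markers were at 860 against 562 CPM and immune markers at 205 against 138 CPM. Mitochondrial counts made up 14.1% and 13.7%, against 6.82% and 3.52% in the controls. The part of these in the result was not tested. No member differed between strains by edgeR, and 0 did by DESeq2, where 1.43% of all genes differed by edgeR; at an unadjusted p below 0.05 there were 4 of 40 members (10%) and 15.4% of all genes. Of the other pathway genes 29 fell and 10 rose, where 34.1% of all genes were called lower and 34.1% higher. All 11 lectin chaperone genes fell, among them Edem1, which directs misfolded glycoproteins to degradation (log2 -1.09, edgeR adjusted p = 2.04e-09); Krtcap2, a small transferase subunit outside the 40, was at -1.22 and Pmm1 at -1.54.

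The oxygen arms were also compared with each other, which uses no control library but shares its libraries with both comparisons above. Hyperoxia after normoxia had 35 members lower and 2 higher than normoxia alone, with 36.5% of all genes lower and 37% higher. Dolpp1 was 3.38-fold lower, with 5.55, 4.06 and 4.71 CPM in C57BL/6J and 5.4, 4.72 and 4.35 CPM in DBA/2J, below all 24 h controls of the same strain (log2 -1.76, SE 0.0995, edgeR adjusted p = 3.15e-10). Alg2 and Alg1, which add the first mannoses on the cytosolic face, were 2.44-fold and 2.43-fold lower. Uap1 was 2.3-fold and Gfpt1 1.36-fold higher as means of the strains. Of the other pathway genes 32 were lower and 8 higher, led by Mgat3 (17.1-fold lower), Fut8 (3.67-fold lower) and Mlec, a lectin of the endoplasmic reticulum (3.83-fold lower).

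This difference between the oxygen arms was itself unequal between the strains for 15 members, all more negative in DBA/2J; over all genes 7.2% differed towards higher values in DBA/2J and 11% towards lower. The split over all genes was 1241 higher and 1893 lower, but 1271 and 1198 with all 48 libraries in 1 fit and 2086 and 1323 without a filter on low counts. Uap1 went from 62.7, 54.2 and 57.4 CPM in normoxia to 206, 171 and 195 CPM in C57BL/6J and from 114, 96.9 and 91.5 to 146, 169 and 194 CPM in DBA/2J. The groups lay apart in both strains, and its normoxia level was lower in C57BL/6J (log2 1.73 and 0.67, difference -1.05, SE 0.164, edgeR adjusted p = 0.00075). Stt3b went from 120, 116 and 123 to 92.9, 93.7 and 88.5 CPM in C57BL/6J and from 201, 189 and 202 to 93.4, 84.5 and 101 CPM in DBA/2J, so that the strains lay apart in normoxia and overlapped after hyperoxia (difference -0.79, SE 0.109, edgeR adjusted p = 0.000437). Stt3a, the other catalytic subunit, differed by -0.62 (SE 0.0995, edgeR adjusted p = 0.000935). These values share their normoxia libraries with the strain difference under normoxia given above. In all 17 alternatives these 3 calls held and the count ran from 11 to 16.

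**Figure D5:**
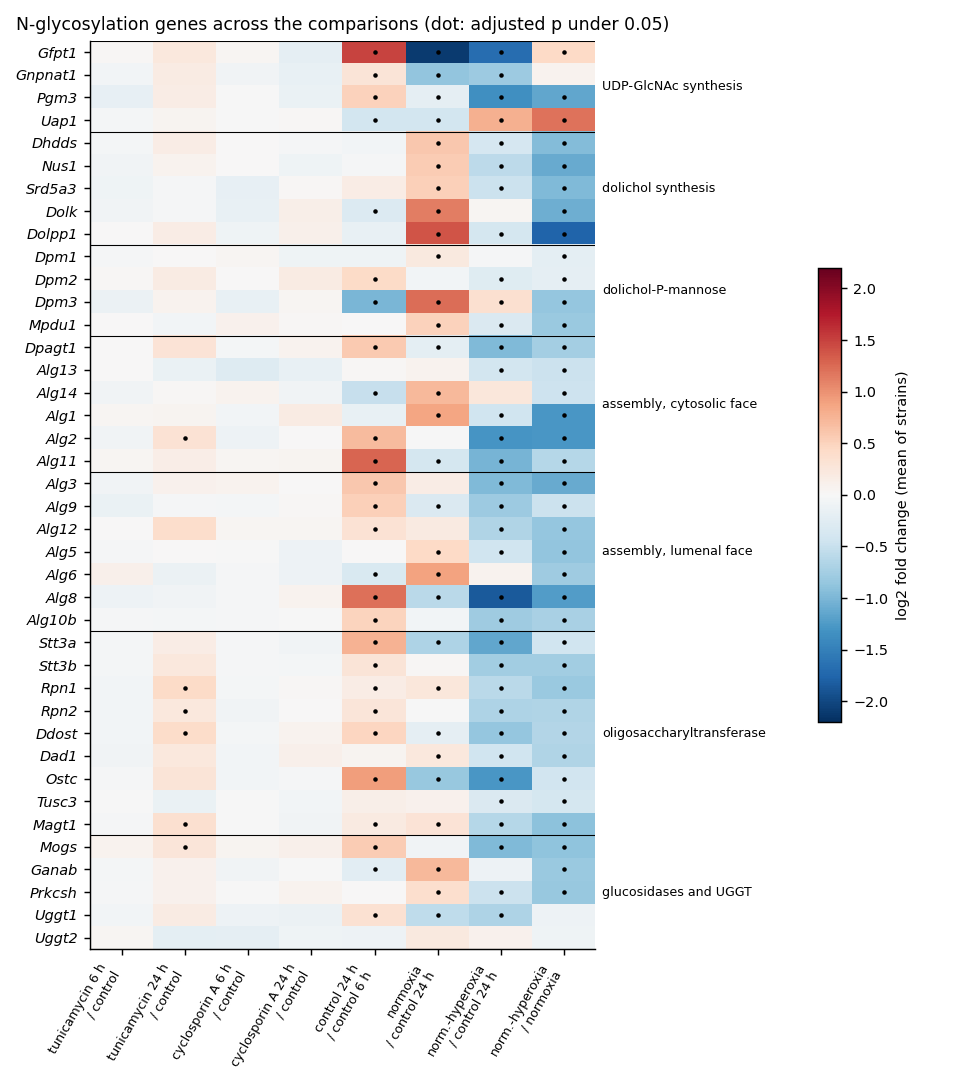
Log2 fold change of each of the 40 members (rows, by role) in 8 comparisons (columns), as the mean of the strains; red is higher, blue lower, and a dot marks an adjusted p below 0.05. The tunicamycin column at 24 h has 6 dots, the other drug columns none, and the normoxia-hyperoxia column against controls has 34, of which 32 are blue.

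Untreated slices of the strains were also compared. At 6 h 5 members were higher in DBA/2J and none lower, while 13.6% of all genes were higher and 12.7% lower. The groups also differed in other ways whose part was not tested. At 6 h proximal tubule markers had a mean of 4160 CPM in C57BL/6J against 6240 CPM in DBA/2J, thick limb and distal tubule markers 14200 and 8790 CPM, podocyte markers 2030 and 1400 CPM and endothelial markers 968 and 586 CPM, and mitochondrial counts made up 15.4% and 8.16%. At 24 h proximal tubule markers had means of 461 and 1350 CPM and podocyte markers 1150 and 678 CPM, with 6.82% and 3.52% of mitochondrial counts. Dhdds, a subunit of the enzyme that builds the dolichol chain, was 1.39-fold higher in DBA/2J, with 42.2, 31.3 and 36.4 CPM in C57BL/6J and 52.2, 47.2 and 51.2 CPM in DBA/2J (edgeR adjusted p = 0.00423). Prkcsh, the beta subunit of glucosidase II, was 1.37-fold higher (edgeR adjusted p = 0.00258) and Ddost 1.28-fold higher (edgeR adjusted p = 0.00677); without C57BL/6J control 6 h replicate 1 the count was 8. At 24 h 2 members differed, where 13.9% of all genes were higher in DBA/2J and 8.27% lower. Tusc3 held 27.2, 24.2 and 30.3 CPM in C57BL/6J and 37.9, 42.4 and 41.6 CPM in DBA/2J, without overlap (1.51-fold, edgeR adjusted p = 0.00101). Stt3a was 1.24-fold lower in DBA/2J (edgeR adjusted p = 0.0307), a call lost without C57BL/6J control replicate 1 or 3 or DBA/2J control replicate 1 or 3. The 24 h count was then 1; it was 4 without C57BL/6J control 6 h replicate 1 or 2, which enter the same fit.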

How the data were processed

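Bulk RNA of 48 kidney slice libraries was analysed from 1 table of raw counts per gene. Per the labels' protocols, RNA was extracted with a Qiagen kit and libraries were made with a stranded mRNA preparation. The submitters' processing notes name bcl2fastq 2.20.0, FastQC 0.11.8, STAR 2.7.9a, featureCounts 1.5.1 and the build GRCm38; the annotation release and the strand setting are not given in the sources used here. The deposited counts are whole numbers and were used without change; symbols come from GENCODE M21 and 55141 of 55487 identifiers matched.

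Each comparison was fitted on its own 12 libraries (24 for the difference between times) in R 4.3.3 with edgeR 4.0.16: filterByExpr, TMM factors, the robust quasi-likelihood test and Benjamini-Hochberg adjustment over all genes, with a threshold of 0.05. A value for both strains is the mean of the effects in each strain. CPM values use TMM factors over 18719 genes in all 48 libraries. Exon lengths and positions come from GENCODE M21; 12 of 40 members share exon bases with another annotated gene, and without a stated strand setting such reads cannot be assigned with certainty.

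The members and the lists were chosen with earlier results of these data known. Genes named are those past the threshold for tunicamycin at 24 h, Dpagt1, the 3 largest rises and falls elsewhere, the 3 smallest p-values for strain differences and for other pathway genes, and 3 related pairs; Alg12, Ostc, Dad1 and further genes were named after their values were seen. The strain difference between the oxygen arms and the normoxia counts within each strain were added after the data were seen. The alternatives were RLE size factors, no filter, DESeq2 1.42.0, all libraries in 1 fit, a replicate block and leaving out each library.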

Additional observations from a re-analysis of the deposited data

Results flagged for a closer look

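The normoxia effect differed between C57BL/6J and DBA/2J for 17 members by the test of the difference itself, all more positive in DBA/2J, where 10.1% of all genes differed in that direction and 6.88% in the other, a split that turned in 6 alternatives. Among those named, the log2 difference (DBA/2J minus C57BL/6J) was 0.80 for Stt3b, 0.75 for Ddost, 0.85 for Mogs and 0.56 for Dpagt1, whose call was lost in 3 of 17 alternatives. The difference between normoxia-hyperoxia and normoxia was unequal between the strains for 15 members, all more negative in DBA/2J, where 7.2% of all genes were higher and 11% lower, a split that turned to 1271 genes higher and 1198 lower with all 48 libraries in 1 fit and to 2086 and 1323 without the filter on low counts; the log2 difference was -0.79 for Stt3b, -1.05 for Uap1 and -0.62 for Stt3a. The tunicamycin effect differed between 24 h and 6 h for 1 member, Rpn1, by 0.47 on the log2 scale, a call lost in 16 of 29 alternatives; over all genes 0.135% were higher and 0.0169% lower. Among the other pathway genes named it differed by 0.73 for Calr, 0.65 for Pdia3 and 0.39 for Mcfd2, whose call was lost in 22 of 29 alternatives. Groups of 3 libraries are too small for the test of single outlying samples, which was not run.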

How the results depend on the processing

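No named gene reversed its direction under the alternatives run. Splits of all genes did turn. The strain difference under normoxia went from 1761 higher and 1195 lower in DBA/2J to 955 and 1079 with all 48 libraries in 1 fit, and turned in 5 further alternatives; that between the oxygen arms went from 1241 and 1893 to 1271 and 1198 with all 48 libraries and to 2086 and 1323 without the filter. Some splits near even turned too, for example normoxia against controls from 7359 and 6891 to 7304 and 7446, and untreated strains at 6 h from 2299 and 2151 to 2347 and 2479, both with all 48 libraries. The counts for controls over time, both oxygen arms and the strain difference under normoxia stayed within 1.5 times of the main count in every alternative. Counts under tunicamycin moved more, and for them the shares of all genes called with 1 library left out are not given here. At 24 h in both strains, 6 members were called with the chosen settings, 11 without the filter on low counts and 2 to 11 with 1 library left out; DESeq2 called 8 members and split all genes 286 higher and 241 lower, against 164 and 69 by edgeR. In C57BL/6J alone 0 became 1 without the filter. In DBA/2J alone 2 became 1 with RLE factors, 5 without the filter, 4 with DESeq2, 5 with all 48 libraries in 1 fit and 0 to 3 with 1 library left out. Against cyclosporin A 7 became 12 with DESeq2, 13 with all 48 libraries and 2 to 11 with 1 left out. For 24 h against 6 h, 1 became 2 without the filter, 3 with DESeq2, 3 with all 48 libraries and 0 to 3 with 1 left out. Between strains in controls, 2 at 24 h became 4 without the filter, 5 with all 48 libraries and 1 to 4 with 1 left out; 5 at 6 h became 4 to 8 with 1 left out, and the strain difference over time went from 0 to 1. The cause was not tested.

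With a replicate block 9 members were called for tunicamycin at 24 h, 9 against cyclosporin A and 3 in DBA/2J alone. Over both strains same-numbered libraries did not all deviate together (4 of 6 correlations over 0.1 for tunicamycin at 24 h, mean 0.122, and 5 of 6 at 6 h), so the numbers were not taken as pairs there. At 24 h the 3 DBA/2J correlations were 0.202 to 0.216 and the 3 C57BL/6J correlations -0.108 to 0.125. For tunicamycin at 6 h all 3 C57BL/6J correlations were over 0.1 (0.143, 0.313 and 0.11). So were those of C57BL/6J for normoxia-hyperoxia against controls (0.136, 0.145 and 0.168). The same held in DBA/2J for the oxygen arms against each other (0.303, 0.13 and 0.254). The block lies within strain and could not be fitted for differences between untreated strains.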
